A study of Mus musculus with 2 samples.

Results

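The CXC chemokines of chromosome 5 are small secreted proteins that direct leukocyte migration, and 9 of their genes were followed here in mouse bone marrow-derived macrophages (BMDMs). These were Cxcl1, Cxcl2, Cxcl3, Cxcl5, Cxcl9, Cxcl10, Cxcl13, Pf4 and Ppbp, out of 21883 protein-coding genes of the RefSeq table on GRCm38.p6 (mm10). Open chromatin had been profiled by ATAC-seq, in which the Tn5 transposase cuts accessible DNA and dense cutting is called as a peak. The R848 group was 1 library of wild-type BMDMs given 100 ng/ml of R848 (resiquimod, an activator of Toll-like receptor 7) for 2 h. The untreated group was 1 library of wild-type BMDMs at 0 h. All cells had been grown out of bone marrow with 20 ng/ml recombinant mouse M-CSF.

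A peak was assigned to a chemokine gene if that gene had the protein-coding gene end nearest to the peak's summit, within 100 kb. This gave 16 of 37725 R848 peaks and 6 of 77060 untreated peaks. A peak that no peak of the other list overlapped by at least 1 bp is called R848-only or untreated-only. With 1 library a group there is no replicate error and no test, and an R848-only peak is not a tested gain of accessibility.

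CXC ligands fall into families by receptor. Cxcl1, Cxcl2, Cxcl3, Cxcl5 and processed Ppbp act on Cxcr2 and draw neutrophils. Induction of genes such as Cxcl1 and Cxcl2 by NF-kappa B is a hallmark of the early Toll-like receptor response. Cxcl9 and Cxcl10 act on Cxcr3 of activated T and NK cells and are known as interferon-induced genes, Cxcl10 responding to NF-kappa B as well. Cxcl13 acts on Cxcr5 and draws B cells into lymphoid follicles, while Pf4 (platelet factor 4) and Ppbp are stored in platelet granules.

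The 250 bases before the starts of 5 of these genes are shown, because R848-only peaks lay over the starts of Cxcl2 and Cxcl10 and over none of the other 3. Sequences are from RefSeq on GRCm38.p6, written 5′ to 3′ on the strand of the gene. Capitals mark matches to 5 motifs searched on both strands, which were the kappa B consensus, the interferon response element (GAAA, any 2 bases, GAAA), AP-1 (TGANTCA), the TATA box (TATAAA) and PU.1 (GAGGAAGT).
Cxcl2 (chr5:90903649-90903898, plus strand): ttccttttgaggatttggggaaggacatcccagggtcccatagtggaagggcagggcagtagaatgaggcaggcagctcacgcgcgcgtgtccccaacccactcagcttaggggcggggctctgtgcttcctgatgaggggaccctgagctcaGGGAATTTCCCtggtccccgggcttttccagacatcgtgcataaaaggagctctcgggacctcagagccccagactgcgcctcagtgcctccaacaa
Cxcl1 (chr5:90890995-90891244, plus strand): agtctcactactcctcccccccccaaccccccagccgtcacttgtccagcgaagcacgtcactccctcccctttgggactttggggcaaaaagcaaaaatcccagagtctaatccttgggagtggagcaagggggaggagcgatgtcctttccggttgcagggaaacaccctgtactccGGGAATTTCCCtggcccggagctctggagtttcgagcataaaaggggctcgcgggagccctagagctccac
Cxcl3 (chr5:90785851-90786100, plus strand): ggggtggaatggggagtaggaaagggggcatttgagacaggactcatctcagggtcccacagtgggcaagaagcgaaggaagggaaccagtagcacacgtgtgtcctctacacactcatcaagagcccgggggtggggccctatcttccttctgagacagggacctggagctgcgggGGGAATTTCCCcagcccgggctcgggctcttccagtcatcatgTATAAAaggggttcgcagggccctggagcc
Cxcl10 (chr5:92348890-92349139, minus strand): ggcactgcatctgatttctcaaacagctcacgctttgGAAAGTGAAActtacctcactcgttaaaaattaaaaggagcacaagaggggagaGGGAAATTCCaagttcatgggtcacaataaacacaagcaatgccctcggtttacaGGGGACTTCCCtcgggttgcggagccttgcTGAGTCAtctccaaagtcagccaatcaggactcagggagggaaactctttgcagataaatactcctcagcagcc
Cxcl9 (chr5:92328080-92328329, minus strand): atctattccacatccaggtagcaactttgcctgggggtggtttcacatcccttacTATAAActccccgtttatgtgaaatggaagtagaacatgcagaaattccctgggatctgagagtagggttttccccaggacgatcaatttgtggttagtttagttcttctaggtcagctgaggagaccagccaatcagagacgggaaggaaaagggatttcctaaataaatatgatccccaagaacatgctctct

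A stretch of 11 bases, GGGAATTTCCC, stood before 3 of the neutrophil-attracting genes, and it holds overlapping kappa B matches on both strands. Counted back from the gene start, it spanned bases -97 to -87 at Cxcl2, -71 to -61 at Cxcl1 and -73 to -63 at Cxcl3. Those 3 genes account for 3 of the 10 windows with this exact stretch among 21254 promoter windows of protein-coding genes (0.047%). Cxcl10 held kappa B matches at -159 to -150 and, as 2 overlapping matches, at -104 to -94, an AP-1 match at -74 to -68 and an interferon response element at -213 to -204. Cxcl9, with the same family role as Cxcl10, held a TATA box match at -195 to -190 and no match to the other 4 motifs. A match describes letters and does not show binding.

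Over the 8 members with a promoter in the table, a kappa B match lay before 4, against 7.91% of all promoter windows. A TATA box match lay before 4 (11.6% of all windows), an AP-1 match before 2 (6.14%), an interferon response element before 1 (2.96%) and a PU.1 match before 1 (2.23%). The PU.1 match was that of Pf4, and the AP-1 matches were those of Cxcl10 and Ppbp. The promoter of Cxcl5 was not analysed here.

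**Figure D1:**
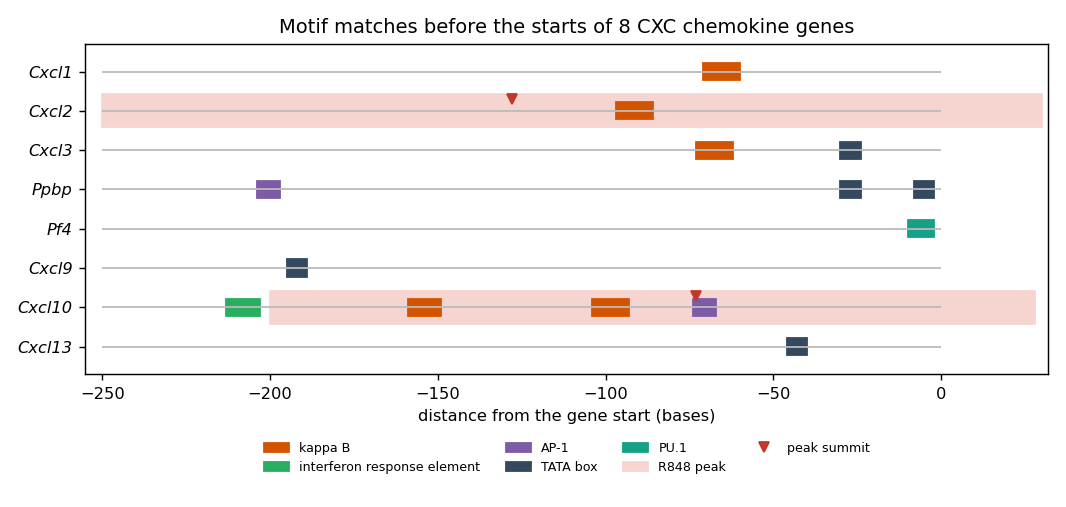
Motif matches in the 250 bases before 8 gene starts; the horizontal axis is the distance from the gene start in bases, coloured boxes are matches, shaded bands are R848 peaks (clipped at the edges for Cxcl2) and triangles are their summits. Peaks cover the Cxcl2 and Cxcl10 starts, and the kappa B matches of Cxcl1 and Cxcl3 lie outside any peak.

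R848-only peaks were assigned to 6 of the 9 genes, Cxcl1, Cxcl2, Cxcl3, Cxcl5, Cxcl10 and Cxcl13, and such a peak was assigned to 47.2% of all protein-coding genes. With 9 genes and no test, the count of 6 does not set the family apart. Untreated-only peaks were assigned to 3 of the 9, Cxcl2, Cxcl5 and Cxcl13, against 56.9% of all genes. The same 6 genes had more R848-only than untreated-only peaks, which held for 20.8% of all genes. No peak of either list was assigned to the other 3, Cxcl9, Pf4 and Ppbp, as for 19.8% of all genes. In total there were 14 R848-only and 4 untreated-only peaks. The mean was 1.56 R848-only and 0.444 untreated-only peaks a gene, against 0.885 and 1.74 over all protein-coding genes, and the median number of R848-only peaks was 2 against 0.

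Of the 16 R848 peaks of these genes, 87.5% were R848-only, against 69.0% of all R848 peaks. The 2 present in both lists made 12.5% (95% Wilson interval 3.50 to 36.0%), and the share over the whole R848 list, 31.0%, lies inside that interval. Of the 6 untreated peaks, 4 were untreated-only, against 84.7% of all untreated peaks. The 2 others made 33.3% (9.68 to 70.0%), and the share over the whole untreated list, 15.3%, also lies inside. The intervals cover counting error over peaks only.

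**Figure D2:**
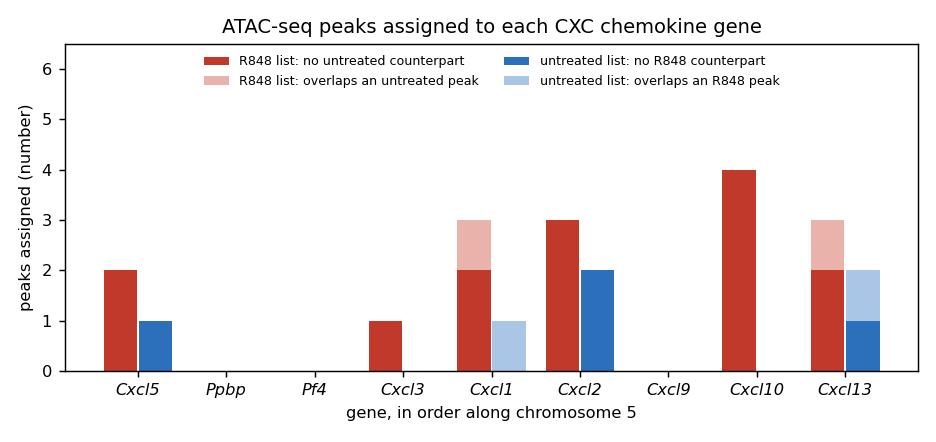
Number of ATAC-seq peaks (vertical axis) assigned to each CXC chemokine gene, in order along chromosome 5; for each gene the left bar is the R848 library and the right bar the untreated library, with pale segments for peaks present in both lists. Cxcl10 has 4 R848-only peaks and no untreated peak, and Ppbp, Pf4 and Cxcl9 have none in either list.

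Depth sets what these lists can show. The deposited fold and p of a peak give the number of tags piled up at its summit, and the smallest pileup in any peak was 5 tags in the R848 list and 4 in the untreated list. The genome-wide background was 1.36 tags in the R848 library and 0.968 in the untreated library, and the median peak held 8 and 7 tags. The peaks of the chemokine genes held 5 to 28 tags in the R848 list and 6 to 10 in the untreated list, with medians of 9 and 8. The q value was above 0.05 for 6 of the 16 R848 peaks and 2 of the 6 untreated peaks. Over all protein-coding genes, 33.8% had an R848 peak and 26.7% an untreated peak within 1 kb of a gene end. Marker genes of macrophages had one at 5 of 8 in the R848 list and 3 of 8 in the untreated list. Cd14, Mertk and Fcgr1 had none in either list, and Adgre1 and Csf1r had none in the untreated list. Such peaks lay at 0 and 2 of 6 megakaryocyte and platelet markers, 2 and 2 of 6 neutrophil markers, 1 and 1 of 5 T and NK cell markers and 0 and 0 of 4 B cell markers in the R848 and untreated lists.

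Cxcl2 (gene 20310, chr5:90903899-90905938, plus strand), one of the earliest neutrophil attractants made by macrophages, had the strongest peak of the family. This R848-only peak, chr5:90903350-90904141, ran from base -549 to base 242 relative to the gene start. It held 28 tags at the summit (95% Poisson interval 18.6 to 40.5) over a local background of 2.96 tags, with a fold of 7.32 and a −log10 q of 14.5. Its summit lay 128 bases before the start, 31 bases from the kappa B stretch shown above, which the peak covers. The nearest untreated peak was 7113 bp away. At 792 bp the peak was wider than the 270 bp of the median R848 peak, and 97.3% of R848 peaks were as narrow or narrower.

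The R848 list held 7976 peaks within 1 kb of a gene end, of which 3310, or 41.5%, were R848-only. Among those 3310, only 7 held as many tags as the Cxcl2 peak, itself included. By fold, which takes its higher local background into account, the Cxcl2 peak ranked lower, at or above 97.6% of them. An R848-only peak within 1 kb of an end was found at 2 of the 9 chemokine genes, Cxcl2 and Cxcl10, against 14.3% of all genes, so the count of 2 does not set the family apart. No chemokine gene of the 9 had an untreated peak within 1 kb of an end, against 26.7% of all genes.

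The other Cxcl2 peaks were weaker. R848-only peaks lay 637 bp past the end of the gene (chr5:90906466-90906724, 13 tags over a local background of 3 tags, fold 3.50) and 5161 bp before its start (chr5:90898516-90898841, 9 tags, fold 3.14). The untreated-only peaks lay downstream, 5573 bp (chr5:90911255-90911560, 6 tags, fold 2.87) and 9887 bp (chr5:90915723-90915922, 8 tags, fold 3.78) from the gene. The R848 peaks lay at, before and just past the gene, and both untreated peaks lay farther downstream.

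Cxcl1 (gene 14825, chr5:90891245-90893121, plus strand), also known as KC, is the neighbour of Cxcl2 and shares its receptor. No peak of either list covered its start. An upstream site was present in both lists, at chr5:90881624-90882051 in the R848 list with 12 tags (6.20 to 21.0, fold 5.51) and at chr5:90881518-90882045 in the untreated list with 7 tags (2.81 to 14.4, fold 4.06). The fold ratio of 1.36 stood at or above that of 73.6% of the 11690 R848 peaks present in both lists, whose median ratio was 1.07. The tag counts overlap within counting error. The 2 R848-only peaks of Cxcl1 lay 4067 bp before its start (chr5:90887093-90887349, 9 tags, fold 4.24) and 4434 bp past its end (chr5:90897408-90897683, 13 tags, fold 5.60), the second lying between Cxcl1 and Cxcl2.

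By position, the R848-only peaks of Cxcl1 and Cxcl2 were neighbours. Between the untreated peaks that flank both genes lay a stretch of 29.2 kb, which held 5 R848 peaks. A stretch between flanking untreated peaks lacks untreated peaks by construction. How often stretches of such length occur over the genome was not counted. A peak between the genes can belong to either one, and with every gene within 50 kb counted, Cxcl1 and Cxcl2 each had 5 R848-only peaks.

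**Figure D3:**
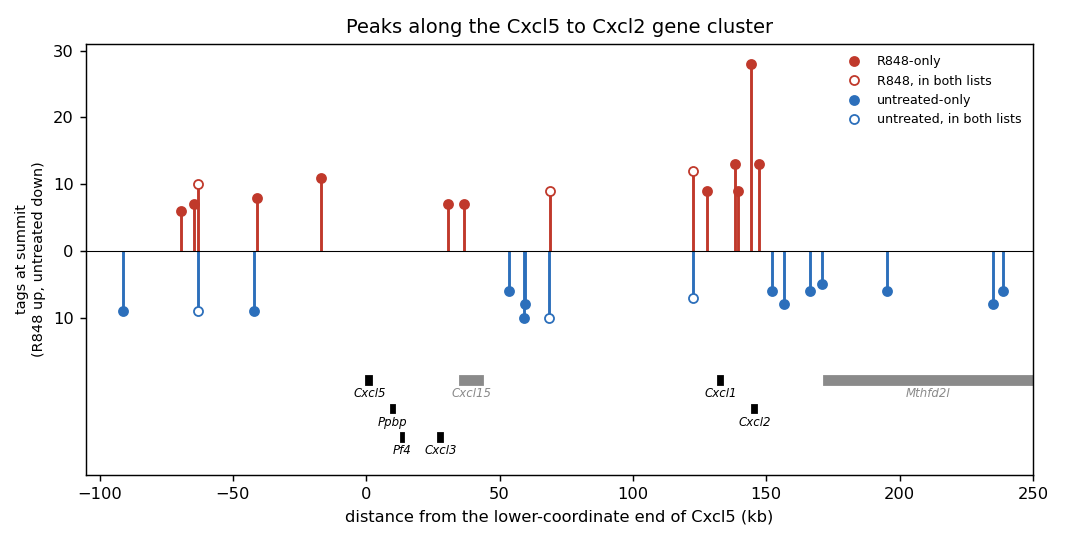
Peaks along the Cxcl5 to Cxcl2 cluster; the horizontal axis is the distance from the lower-coordinate end of Cxcl5 in kb, and the vertical axis gives tags at the summit, upwards for R848 and downwards for untreated, with open symbols for peaks present in both lists. Boxes are genes, with chemokine genes of the set in black. The 28-tag Cxcl2 peak stands highest. The Cxcl5 to Cxcl3 genes lie between flanking untreated peaks, a stretch that lacks untreated peaks by construction.

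Cxcl3 (gene 330122, chr5:90786101-90788093, plus strand) had 1 R848-only peak, 1699 bp past its end (chr5:90789353-90789855, 7 tags, fold 3.39), and no untreated peak. Its start, with the same kappa B stretch as Cxcl2, lay under no peak. Cxcl5 (gene 20311, chr5:90759298-90761625), a neutrophil attractant also made by epithelial cells, had R848-only peaks 17113 bp and 41098 bp from the gene. The nearer one (chr5:90742056-90742380) held 11 tags with a fold of 5.09. The farther one (chr5:90718101-90718300, 8 tags, fold 3.81) lay inside the long non-coding gene Gm36084, as did the untreated-only peak of Cxcl5 (chr5:90717038-90717297, 9 tags, fold 5.08), and the gap between them was 803 bp.

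Pf4 (gene 56744, chr5:90772435-90773383) and Ppbp (gene 57349, chr5:90768518-90770063), the platelet chemokine genes, sit between Cxcl5 and Cxcl3. They, Cxcl5 and Cxcl3 lay together between the same flanking untreated peaks, in a stretch of 95.2 kb that held 4 R848 peaks. Such a stretch lacks untreated peaks by construction, and others of its length were not counted. The R848 summit nearest to both Pf4 and Ppbp was that of the Cxcl3 peak, 16409 bp from Pf4 and 19729 bp from Ppbp. A count of 0 peaks says that no site passed the peak caller, not that the genes were closed.

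Counted by position with 100 kb on each side, the Cxcl5 to Cxcl2 window of 346.6 kb held 14 R848 and 15 untreated peaks. Of these 11 were R848-only and 12 untreated-only. As many R848-only peaks were found in 2.01% of 7865 genome stretches of that size, and as many untreated-only peaks in 22.2%. The stretches were counted whether or not they held genes, whereas the window was placed on genes. Between the outer gene ends themselves, 146.6 kb, 6 of 8 R848 peaks were R848-only and 3 of 5 untreated peaks untreated-only. Those 3 untreated-only peaks were assigned to Cxcl15, a further CXC ligand gene of the cluster, as was 1 of the 6 R848-only peaks.

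Cxcl10 (gene 15945, chr5:92346638-92348889, minus strand), which encodes IP-10, had 4 R848-only peaks, the most in the family, and no untreated peak. As many or more R848-only peaks were assigned to 4.94% of all genes. The peak at its start, chr5:92348861-92349089, ran from base -200 to base 28 relative to the start and held 8 tags (3.45 to 15.8) with a fold of 3.81 and a −log10 q of 1.86. It covered both kappa B stretches and the AP-1 match, in which its summit lay, and the interferon response element began 4 bases beyond its edge. Among the 3310 R848-only peaks at gene ends it was an ordinary one, whose median also was 8 tags. The nearest untreated peak was 70630 bp away.

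The other Cxcl10 peaks lay upstream, 4985 bp (chr5:92353747-92353946, 6 tags, fold 2.97), 21617 bp (chr5:92370448-92370647, 6 tags, fold 2.87) and 26004 bp (chr5:92374709-92375076, 9 tags, fold 3.82) from the gene. The last 2 were nearer to Cxcl11, at 7210 and 11597 bp. Cxcl11 encodes another Cxcr3 ligand, but it is a transcribed pseudogene in the mouse table and was not among the genes used. All 4 peaks lay inside Art3, an ADP-ribosyltransferase gene that spans Cxcl10, and the gene table gives no exons to place them by. With a reach of 20 kb, Cxcl10 had 2 R848-only peaks, and with a −log10 q of at least 2 in both lists it had 1. The same 3 counts (4 R848-only, 0 untreated-only, 0 in both) were found at 29 other genes, of which Tbxas1, Capns1 and Piwil4 were nearest in the fold of their strongest R848 peak, at 3.81, 3.88 and 3.88, over the 2 libraries.

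Cxcl9 (gene 17329, chr5:92321331-92328079, minus strand), which encodes the interferon-gamma-induced ligand MIG, had no peak assigned. The nearest R848 summit lay 4533 bp before its start, in an R848-only peak of 8 tags (chr5:92332523-92332746, fold 3.81) that was assigned to Art3, 813 bp from that gene's end. Cxcl9 and Cxcl10 lay between the same flanking untreated peaks, in a stretch of 156.8 kb that held 7 R848 peaks. This stretch, too, lacks untreated peaks by construction, and others of its length were not counted. With every gene within 50 kb counted, Cxcl9 had 7 R848-only peaks and Cxcl10 had 6. Those of Cxcl9 were the peaks assigned to Naaa, Sdad1, Art3 and Cxcl10. How many genes reach such counts was not determined.

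The Cxcl9 to Cxcl10 window, 227.6 kb with 100 kb on each side, held 10 R848 and 3 untreated peaks, of which 8 were R848-only and 1 untreated-only. As many R848-only peaks were found in 2.18% of 11973 stretches of that size, and 1 or more untreated-only peaks in 95.8%. Of the 8 R848-only peaks, 4 were assigned to Cxcl10. The others were assigned to Ppef2 (6 tags), Naaa (18 tags), Sdad1 (16 tags) and Art3 (8 tags). The 3 untreated peaks of the window lay at Naaa and Nup54 and none at a chemokine gene.

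**Figure D4:**
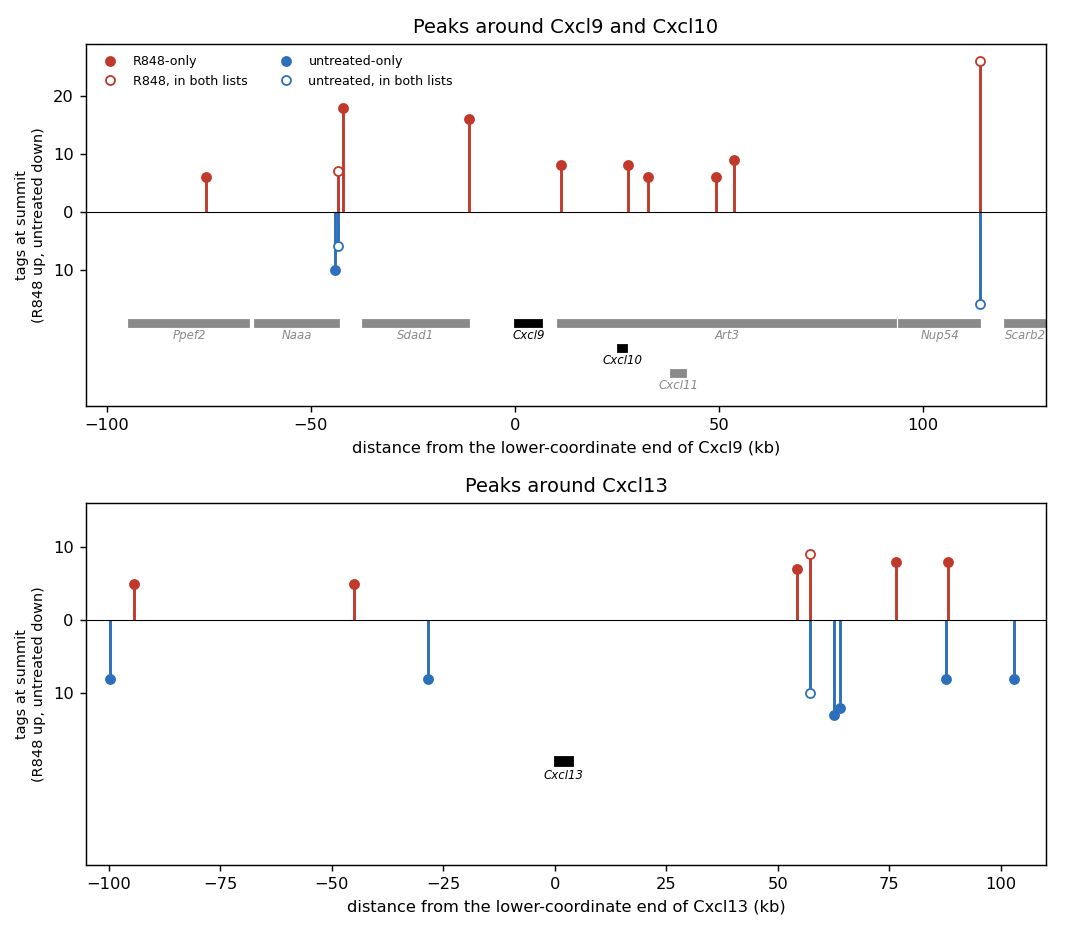
Peaks around Cxcl9 and Cxcl10 (top) and around Cxcl13 (bottom); the horizontal axes give the distance in kb from the lower-coordinate end of Cxcl9 or Cxcl13, and tags at the summit point upwards for R848 and downwards for untreated, with open symbols for peaks present in both lists. The Cxcl10 peaks hold 6 to 9 tags with no untreated peak between Naaa and Nup54, whereas Cxcl13 has peaks of both lists at 28 kb or more.

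Cxcl13 (gene 55985, chr5:95956939-95961068, plus strand), the B cell attractant, had no peak within 20 kb. A downstream site 53 kb away was present in both lists, at chr5:96014001-96014581 with 9 tags (fold 3.88) in the R848 list and at chr5:96014013-96014316 with 10 tags (fold 3.64) in the untreated list. The fold ratio of 1.06 was close to the median of 1.07 over the peaks present in both lists. The R848-only peaks held 5 tags (chr5:95911649-95911848, 45110 bp upstream) and 7 tags (chr5:96011190-96011389, 50134 bp downstream), and the untreated-only peak held 8 tags (chr5:95928219-95928780, 28465 bp upstream). With a −log10 q of at least 2 no R848-only peak of Cxcl13 was left. Its window of 204.1 kb held 5 R848-only and 6 untreated-only peaks, counts reached in 9.77% and 36.8% of 13347 stretches of that size.

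**Figure D5:**
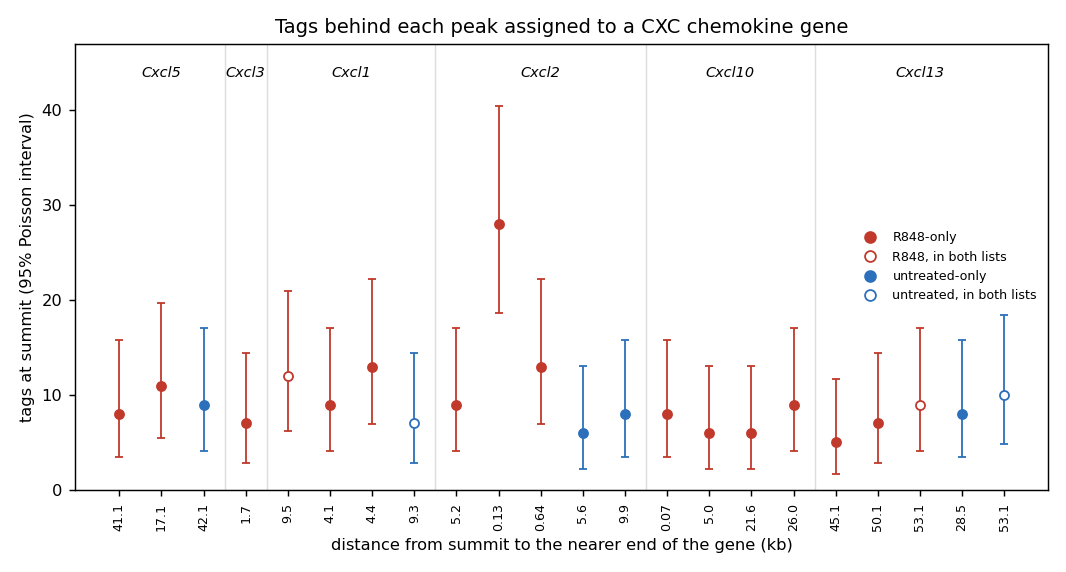
Tags at the summit of each of the 22 peaks assigned to a CXC chemokine gene, with 95% Poisson intervals for counting error; the horizontal axis gives the distance from the summit to the nearer gene end in kb, and R848 peaks stand left of untreated peaks within a gene. The Cxcl2 peak 128 bp from the gene, with 28 tags, has the highest value, and the intervals of the other peaks overlap one another.

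Ordered by the tags of the strongest R848 peak, the genes ran Cxcl2 (28), Cxcl1 (13), Cxcl5 (11), Cxcl10 and Cxcl13 (9 each) and Cxcl3 (7). From Cxcl1 downwards the neighbours in this order did not differ beyond their Poisson intervals. The interval of Cxcl2, 18.6 to 40.5, overlaps that of Cxcl1, 6.92 to 22.2.

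Lists of related genes were counted in the same way, to be read against the 47.2% of all genes with an R848-only peak and the 14.3% with one within 1 kb of an end. The CC chemokine genes of chromosome 11, the other large chemokine cluster, had 14 R848-only and 10 untreated-only peaks over 11 genes. That made 1.27 and 0.909 a gene, against 0.885 and 1.74 over all genes. R848-only peaks were assigned to 6 of the 11, a share near that of all genes, and lay within 1 kb of an end at 4 of 11, against 2 of 9 CXC genes. Those 4 were the monocyte attractant gene Ccl2, with 1 such peak, the macrophage inflammatory protein genes Ccl3, with 1, and Ccl4, with 2, and Ccl9, with 1. The median was 1 R848-only peak a gene for the CC genes and 2 for the CXC genes, and the difference between the families was not tested.

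The other CXC ligands had R848-only peaks at 3 of 5 genes and within 1 kb of an end at 1, Cxcl16. They had 13 untreated-only peaks, 8 of them at Cxcl12, or 2.6 a gene against 1.74 over all genes. The receptors of CXC ligands had R848-only peaks at 5 of 8 and at 0 of 8 within 1 kb, with 4 at Cxcr4 and none at Cxcr2 or Cxcr3. The shares of 3 of 5 and 5 of 8 were not far from that of all genes, nor from the 6 of 9 of the chemokine genes followed here. The NF-kappa B and interferon factors had R848-only peaks at 9 of 12, against 47.2% of all genes. Within 1 kb of an end they had them at 6 of 12, against 14.3%. Those 6 were Nfkb1, Rela, Nfkbia, Nfkbiz, Irf1 and Irf7. The same list had 13 untreated-only peaks, or 1.08 a gene against 1.74 over all genes. An untreated peak lay within 1 kb of an end at 6 of 12, against 26.7% of all genes.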

How the data were processed

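ATAC-seq had been done in 1 R848 and 1 untreated library. Per the submitters' processing notes, bcl2fastq 2.19, Bowtie2 2.2.6 and MACS2 2.2.7.1 were used on mm10, with no settings listed, and the treatment of duplicates, multiply mapped reads and insertion shift, like the sequencing depth, is not given in the sources used here. Cxcl1, Cxcl2 and Cxcl3 are paralogs, so the handling of multiply mapped reads could change their peaks. Per the labels' protocols, libraries were amplified for 15 cycles.

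Each deposited list gives the authors' fold (the ratio of the summit pileup to the background of the same library) and the authors' −log10 p and −log10 q. All p were under 0.01. Fold is (pileup + 1)/(background + 1) and p a Poisson tail, so tags were solved from both, within 0.1% for 99.8% of R848 and 99.9% of untreated peaks. Tags are not depth-normalised, and tag intervals cover counting error only.

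Overlap (1 bp or more), assignment (100 kb) and motifs were computed with scipy 1.17.1, pandas 2.3.3 and numpy 2.4.6 under Python 3.11.15, drawn with matplotlib 3.10.9, and checked on simulated peaks. The 13 mitochondrial genes were left out. Genome stretches tile each chromosome without overlap. They were not limited to stretches with genes, whereas the chemokine windows were placed on genes. All 9 members were named; neighbours had to lie within 100 kb, and genes of a list were named if an R848-only peak lay within 1 kb of an end, at most 4 a list. Cxcl12, Cxcr4, Cxcr2, Cxcr3 and the markers Cd14, Mertk and Fcgr1 fall outside that rule and were named after their values were seen. So were Irf1 and Irf7, which exceed the limit of 4 a list. Members, lists, motifs and alternatives were chosen with earlier results of these data known.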

Additional observations from a re-analysis of the deposited data

How the results depend on the processing

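Counts depended on the reach and on peak strength. The 14 R848-only peaks of the 9 genes became 9 with gene ends within 20 kb, 6 under a q limit (−log10 q of 2 or more) and 8 with genes of any biotype, an alternative chosen after seeing the data. They were 17 with every gene within 50 kb and 14 in lists of equal length, with a gap of up to 500 bp, or with an overlap of 50% of the shorter peak. The 4 untreated-only peaks became 2 within 20 kb, 11 with every gene within 50 kb, 2 in lists of equal length and 1 under the q limit. The share of all genes with an R848-only peak, 47.2%, became 38.3% within 20 kb, 77.2% with every gene within 50 kb, 23.7% under the q limit, 51.0% in lists of equal length, 45.2% with a 500 bp gap, 48.3% with the 50% overlap and 37.0% with genes of any biotype. Beside these shares, 5, 9, 4, 6, 6, 6 and 4 of the 9 chemokine genes had such a peak. The share of R848 peaks present in both lists stayed between 10% and 25%, inside its interval. A shorter reach or more competing genes can by construction only keep or lower the counts. Fewer peaks in a list cannot raise that list's own counts, but fewer peaks in the other list cannot lower them. Peaks of 5 to 9 tags, most of the family's, lie near the smallest pileup called. No paired analysis was possible because each group holds 1 library, and no replicate could be left out.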

Other observations

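Around the chemokine genes, strong R848-only peaks lay at neighbours on the far side of Cxcl9. One covered an end of Sdad1, a nucleolar protein gene, at chr5:92309845-92310145 with 16 tags and a fold of 7.21, 31 bp from that end. Another lay 1100 bp from Naaa, which encodes a lysosomal amidase of N-acylethanolamines, at chr5:92279117-92279524 with 18 tags and a fold of 6.88. Both held more tags than any Cxcl10 peak. Untreated peaks lay near the same end of Naaa. One was untreated-only (chr5:92277084-92277449, 10 tags, fold 5.59). The other overlapped an R848 peak (chr5:92277948-92278230, 6 tags, fold 3.50). Nup54, a nuclear pore gene next to Art3, had a peak present in both lists 24 bp from its end in the R848 list, with 26 tags against 16 in the untreated list and folds of 9.93 and 8.64.

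On the far side of Cxcl2, all 5 untreated peaks of the window assigned to Mthfd2l, a mitochondrial folate enzyme gene, were untreated-only. That held for 84.7% of all untreated peaks. The 5 peaks held 5 to 8 tags, and no R848 peak of the window was assigned to Mthfd2l. Cxcl15, which lies between Cxcl3 and Cxcl1, had 2 R848 peaks, of which 1 was R848-only, and 4 untreated peaks, of which 3 were untreated-only.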
